A study of Mus musculus with 8 samples.

Results

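DC-SCRIPT binding in splenic cDC1 was described across all 31473 peaks of the cDC1 list, each a place where wild-type cells held more CUT&Tag signal than Zfp366 knockout cells. No peak was chosen or left out, and the 31473 peaks are those that the authors kept of 174971 places put forward by the peak caller, which is 18.0% kept. Of the places put forward, 112881 (64.5%) were dropped at the authors' limits over knockout and 30617 at those over the local signal. The series held 8 libraries of cDC1 and cDC2 from the spleen, and only the 5 cDC1 libraries bear on these peaks. They came from female C57BL/6 mice, with 3 mouse pools of genotype zfp366+/+ (wild type) and 2 mouse pools of genotype zfp366-/- (knockout). The knockout was carried by the whole animal as labelled, and the sources used here do not say which part of the gene was removed. The file header names a single wild-type tag set and a single knockout tag set as its control, and it does not say whether all 3 wild-type and both knockout libraries entered them, so no value per mouse pool was used and no spread between pools can be given. The wild-type set held 35.5 M tags and the knockout set 12.1 M tags.

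DC-SCRIPT, the zinc finger protein encoded by Zfp366, is expressed in dendritic cells and is known as a cofactor of nuclear receptors and a regulator of transcription. Conventional dendritic cells of type 1 (cDC1) take up dead cells, cross-present their antigens to CD8 T cells and are a main source of interleukin 12. In CUT&Tag, an antibody tethers a transposase to the protein, and the DNA next to it is cut, tagged and sequenced. The transposase also cuts open DNA without an antibody, and open DNA was not measured apart from binding here, so a loss of binding and a loss of open DNA in the knockout cannot be told apart.

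Peaks at promoters were read as sequence first, because each is a stretch of DNA under the signal. RefSeq promoter windows of assembly GRCm38.p6, from 250 bases before to 50 bases after a gene start, were used, and the bases before the start that lay under the peak are printed 5′ to 3′ on the gene's strand. Capitals mark matches to a motif on either strand. The motifs marked were the CCAAT box (CCAAT), the GC box (GGGCGG), the E-box (CACGTG), the cyclic AMP response element (TGACGTCA), the AP-1 site (TGANTCA), the RUNX site (TGTGGTT), the NRF1 site (GCGCATGCG), the TATA box (TATAAA), a PU.1 site (AGAGGAAGT) and an ETS-IRF composite (GGAANNGAA). The ETS core (GGAA) was searched too and is not marked. A match is a description of letters and not of a bound factor. Of the 10 strongest peaks centred in a promoter window and with a stretch of at least 100 bases, 6 stretches hold CCAAT on one strand or the other. CCAAT is in 38.2% of all windows, but whole windows of 300 bases are longer than these stretches, so the shares are not directly comparable. The first set shows 5 of the 10, picked after their values were seen to show stretches with the motif (4) and without it (Nlrp3). They lie at chr1:131527653-131527783 (+) for Fam72a, chr19:8802263-8802389 (+) for Zbtb3, chr11:69098699-69098841 (+) for Per1, chr9:57076126-57076262 (+) for Sin3a and chr11:59542492-59542682 (+) for Nlrp3, whose stretch holds none of the motifs marked, as do 3 others of the 10, those of Psme2, Fam168a and Evi5l.
Fam72a: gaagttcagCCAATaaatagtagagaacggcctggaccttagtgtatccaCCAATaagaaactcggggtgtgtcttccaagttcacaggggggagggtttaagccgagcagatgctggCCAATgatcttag
Zbtb3: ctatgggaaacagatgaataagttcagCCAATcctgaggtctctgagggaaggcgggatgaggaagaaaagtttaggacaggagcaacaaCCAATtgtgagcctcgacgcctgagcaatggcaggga
Per1: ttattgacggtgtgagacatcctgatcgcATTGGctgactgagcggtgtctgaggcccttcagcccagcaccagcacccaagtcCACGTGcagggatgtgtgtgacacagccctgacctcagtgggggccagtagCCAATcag
Sin3a: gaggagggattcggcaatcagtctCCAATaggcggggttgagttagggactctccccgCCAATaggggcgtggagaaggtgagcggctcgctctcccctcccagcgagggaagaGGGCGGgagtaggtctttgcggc
Nlrp3: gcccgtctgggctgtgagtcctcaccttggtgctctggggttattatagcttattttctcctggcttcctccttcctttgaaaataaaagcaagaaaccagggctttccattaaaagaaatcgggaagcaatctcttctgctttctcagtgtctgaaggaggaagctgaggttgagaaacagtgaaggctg

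Promoters poor in CpG form the second set, chosen because they hold the PU.1 site under the peak, and that of Traf3ip3 holds the ETS-IRF composite as well, overlapping it. Bcl2a1d encodes a survival protein of the BCL2 family with near-identical copies in the genome, and tags may not be assigned to the right copy, so its values are uncertain. Tlr11 encodes a sensor of parasite and bacterial proteins that marks cDC1, Rassf5 a Ras and Rap1 effector in leukocyte adhesion and Traf3ip3 an adaptor of immune cells. They lie at chr9:88731851-88732000 (-), chr14:50357668-50357858 (+), chr1:131200186-131200345 (-) and chr1:193201550-193201740 (-).
Bcl2a1d: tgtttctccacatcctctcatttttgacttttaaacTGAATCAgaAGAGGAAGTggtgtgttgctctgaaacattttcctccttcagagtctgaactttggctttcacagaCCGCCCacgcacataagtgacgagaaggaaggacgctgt
Tlr11: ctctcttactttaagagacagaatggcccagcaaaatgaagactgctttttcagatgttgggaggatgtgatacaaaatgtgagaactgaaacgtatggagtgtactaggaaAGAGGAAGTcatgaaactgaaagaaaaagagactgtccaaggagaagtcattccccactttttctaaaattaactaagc
Rassf5: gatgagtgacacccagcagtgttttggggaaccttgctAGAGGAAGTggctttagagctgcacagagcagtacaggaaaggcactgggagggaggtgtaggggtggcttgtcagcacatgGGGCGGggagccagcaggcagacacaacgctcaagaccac
Traf3ip3: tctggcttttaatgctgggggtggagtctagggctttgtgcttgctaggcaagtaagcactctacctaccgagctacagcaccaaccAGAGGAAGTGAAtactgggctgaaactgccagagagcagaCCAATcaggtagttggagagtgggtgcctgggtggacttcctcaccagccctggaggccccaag

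The wild-type signal of a peak, given as normalised tags (wild-type tags scaled to a total of 10000000), ran from 4.51 to 360.9 with a median of 15.5. The middle 50% of peaks lay between 9.87 and 25.4. The strongest 1% of peaks held 5.07% of all signal, the strongest 10% held 28.4% and the stronger 50% held 75.7%, so the signal was spread over many peaks. Put at the knockout depth, the wild-type tags of a peak had a median of 19.0, against a median of 2.00 knockout tags. Knockout tags ran from 0.5 to 51.5, and 6329 peaks (20.1%) stood at 0.5, the lowest value listed, which also stands for no tag. The fold over knockout had a median of 10.2, and 2861 peaks (9.09%) lay just inside the authors' limit of 4, with a fold under 5. The authors kept a peak for its fold, so folds describe the list and test nothing.

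Knockout tags were more numerous at peaks with more wild-type signal. In the weakest 10% of peaks, the mean was 0.675 knockout tags and 65.1% of peaks stood at the lowest value. In the strongest 10% the mean was 6.15 knockout tags and 3.05% stood at the lowest value. Across the 31473 peaks the Spearman correlation of knockout tags with wild-type signal was 0.67, a description over peaks that share both tag sets and the limit on fold. The focus ratio, the share of a peak's tags that lie where a single binding site would place them, had a median of 0.666 and barely moved with signal (Spearman correlation -0.056 over the same peaks).

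The strongest peaks lay at genes of several kinds and mostly away from gene ends. Hip1, which encodes a clathrin and actin linker of endocytosis, held 238.2 normalised tags inside the gene at chromosome 5, 135537419 to 135537609, with 289.5 wild-type tags at the knockout depth against 8.5 knockout tags. Atp1b3, a subunit of the sodium pump, was nearest to a peak of 217.9 normalised tags that lay 35.2 kb away and had 2 knockout tags. Ubash3b, a phosphatase that dampens receptor signalling, held 216.4 normalised tags, with 262.3 wild-type tags at the knockout depth against 12 knockout tags. Klf6, a zinc finger transcription factor, was nearest to a peak of 198.8 normalised tags at 18.0 kb, with 241.1 against 10.5 tags. Cadm1, the adhesion molecule used to mark cDC1, held 203.7 normalised tags inside the gene. In each of these peaks the wild-type tags at equal depth were far above the knockout tags, as the authors' limit requires.

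Of the 10 strongest peaks, 2 lay on a scaffold that is placed on no chromosome (JH584304), with 360.9 and 186.9 normalised tags. They also held many knockout tags, 34 and 51.5, and the second had a fold of 4.40 (exact 95% interval 3.29 to 5.90). Mylpf, a muscle myosin light chain gene, had a peak of 207.8 normalised tags 94 bp from its end, the strongest at any gene end. Tnc, encoding the matrix protein tenascin-C, held 184.4 normalised tags against 1.5 knockout tags. Gtf3c5, a subunit gene of the RNA polymerase III factor TFIIIC, was nearest to a peak of 176.4 normalised tags. The highest fold in the list stood 78.4 kb from Reep3, where 109.8 normalised tags met the lowest knockout value, and the exact lower 95% limit of that fold was 35.9. Cass4, an adhesion adaptor gene, held 171.8 normalised tags against 1 knockout tag.

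The place of a peak relative to genes went with its signal. Of all peaks, 13735 (43.6%, exact 95% interval 43.1% to 44.2%) were centred inside a protein-coding gene and over 1 kb from its ends, 7733 (24.6%) over 10 kb from any protein-coding gene, 6531 (20.8%, 20.3% to 21.2%) within 1 kb of a gene end and 3463 (11.0%, 10.7% to 11.4%) at 1 to 10 kb, while 11 lay on scaffolds. Counted from all genes of the RefSeq table, of any type, 12.4% of peaks lay beyond 10 kb. At gene ends, the signal had a median of 19.7 normalised tags, against 14.9 inside genes, 15.4 at 1 to 10 kb and 13.5 beyond 10 kb. The focus ratio was lower at gene ends, with a median of 0.649, than in the other places, where medians lay between 0.669 and 0.671. The values of the middle 50% of peaks overlapped widely between places in both measures.

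**Figure D1:**
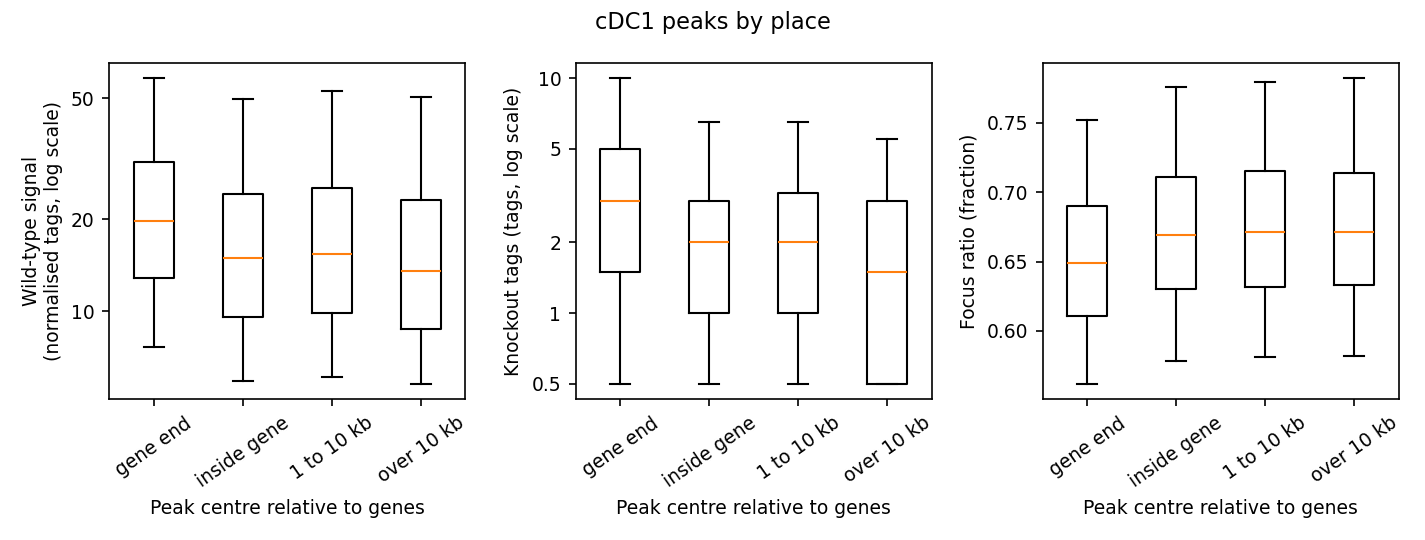
Wild-type signal, knockout tags and focus ratio of cDC1 peaks by place (boxes: middle 50% with the median as a line, whiskers: 5th to 95th percentile of peaks, log axes in the left and middle panels). Gene-end peaks had the highest median signal, 19.7 normalised tags, and the most knockout tags, with a median of 3.00.

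Knockout tags differed by place as well. Gene-end peaks held a mean of 3.73 knockout tags against 29.7 wild-type tags at the same depth, and 656 of 6531 stood at the lowest value (exact 95% interval 9.33% to 10.8%). Beyond 10 kb the mean was 2.05 knockout tags against 22.9 wild-type tags, and 25.8% stood at the lowest value (24.9% to 26.8%). Peaks of like signal still differed: between 20 and 30 normalised tags, the mean was 3.90 knockout tags at 1504 gene-end peaks, 3.07 at 2380 peaks inside genes, 3.02 at 596 peaks at 1 to 10 kb and 2.73 at 1132 peaks beyond 10 kb. The median fold over these peaks was 7.72, 10.3, 10.8 and 11.9 in the same order. The intervals cover counting error over peaks only, and mouse pools could not be compared. The gap between peaks beyond 10 kb and gene-end peaks in the share at the lowest value was 15.8 percentage points over all peaks and 7.28 among the higher-scoring 50%.

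By signal, the share of gene-end peaks was larger at higher signal, from 7.62% in the weakest 10% of peaks to 28.9% in the strongest, and that of peaks beyond 10 kb went from 34.1% to 21.5%. Peaks inside genes made up 47.2% of the weakest 10% and 37.6% of the strongest. The weakest 10% held peaks of at most 7.05 normalised tags, and 3 knockout tags, the limit that a count of 0 allows, equal 2.47 normalised tags. At a fold of at least 4, a peak this weak could be kept only with fewer than 3 knockout tags.

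**Figure D2:**
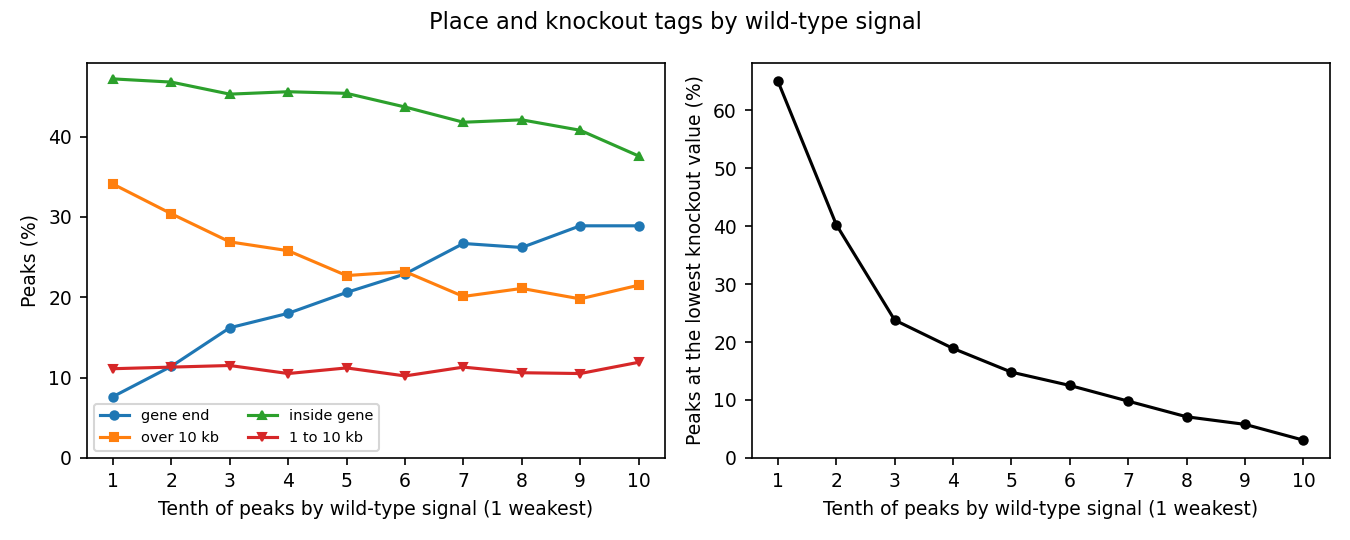
Share of cDC1 peaks in each place (left) and share at the lowest knockout value (right) over 10 groups of equal size ordered by wild-type signal. Gene-end peaks made up 7.62% of the weakest group and 28.9% of the strongest, and the share at the lowest knockout value went from 65.1% to 3.05%.

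Around gene starts the peaks formed 2 ridges. The caller kept peaks at least 382 bp apart, so the same start could not add a peak to both ridges. Of 30481 peaks on chromosomes with promoter windows, 6467 (21.2%) were centred within 2 kb of a RefSeq start. The bin from 50 to 100 bp after the start held 618 peaks and the bin from 100 to 150 bp held 562. On the other side, 573 peaks lay from 200 to 150 bp before the start and 540 from 150 to 100 bp before it. Between these ridges, the last 50 bp before the start held 279 peaks, fewer than any bin from 250 bp before to 150 bp after it. Peaks before the start were stronger, with bin medians of 21.6 to 26.1 normalised tags from 250 to 50 bp before it and of 18.0 to 19.1 in the 3 bins after it. Of the gene-end peaks on these chromosomes, 4798 of 6360 (75.4%) lay within 1 kb of a start. Their median signal was 20.4 normalised tags, against 16.9 for the 1562 with no start so near.

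**Figure D3:**
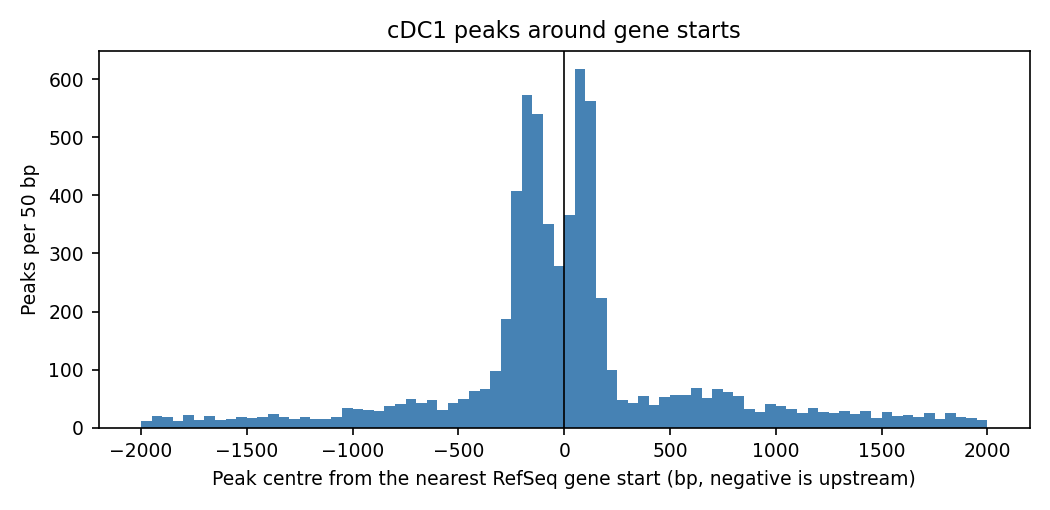
Number of cDC1 peak centres in 50 bp bins by distance from the nearest RefSeq gene start (negative is upstream). The counts form a ridge on each side of the start, with 573 peaks in the fullest bin upstream and 618 downstream, and 279 in the bin just before the start. Peaks were kept at least 382 bp apart, so the ridges hold peaks of different starts.

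Promoter windows with the strongest peaks lay at genes of varied function. The peak between Fam72a and Srgap2, whose starts face away from each other, held 142.8 normalised tags against 28 knockout tags, with a fold of 6.19 (exact 95% interval 4.22 to 9.40). Ifngr1, encoding the ligand-binding chain of the interferon gamma receptor, held 139.1 normalised tags against 14 knockout tags. Zbtb3, a zinc finger gene, held 138.0 normalised tags against 1.5 knockout tags, a fold of 111.8 (23.0 to 692). These neighbours in strength thus differed widely in knockout tags.

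Polr2a, the gene of the largest RNA polymerase II subunit, held 137.0 normalised tags and Psme2, of the proteasome activator PA28, held 129.8. Sp1, encoding the factor that binds GC boxes, held 117.6. Per1, a repressor gene of the circadian clock, held 106.4 normalised tags with 129.2 wild-type tags at the knockout depth against 13.5 knockout tags. Nlrp3, the inflammasome sensor gene, held 103.8 normalised tags with 128.3 against 5.5 tags. Cst3, encoding cystatin C, which is abundant in dendritic cells, held 99.1 normalised tags against 2.5 knockout tags.

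Promoter windows of CpG-rich genes held a peak more often. Of 21006 windows, 4643 (22.1% with a peak) were overlapped by at least 1 bp, at 4254 of 17250 genes (24.7%). With a fold of at least 8, 10.4% of windows held one. With over 10 CpG in the window the share was 35.1% (4080 of 11613, exact 95% interval 34.3% to 36.0%), and with up to 10 CpG it was 5.99% (563 of 9393, 5.52% to 6.49%). Windows with another gene starting within 500 bp upstream on the opposite strand held a peak in 51.5% of 1455 cases, against 19.9% of the other 19551. Among windows with over 10 CpG these shares were 53.5% and 32.7%, so the difference was also seen within CpG-rich windows.

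Motif letters differed between windows with and without a peak, and the difference depended on CpG. Shares over all windows are given as well, but they mix CpG-poor and CpG-rich windows. The like comparison is with windows of the same CpG range without a peak. Among windows with up to 10 CpG, the PU.1 site was in 43 of 563 with a peak (7.64%, exact 95% interval 5.58% to 10.2%) and in 97 of 8830 without one (1.10%, 0.892% to 1.34%), against 1.03% of all windows. PU.1, an ETS factor encoded by Spi1, is needed in all dendritic cells. Bcl2a1d, printed above, held 61.3 normalised tags against 1 knockout tag and Tlr11 held 35.2 against the lowest knockout value. Copies of Bcl2a1 are near-identical, so the 43 windows are not all separate sequences.

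The ETS-IRF composite, a site at which PU.1 and IRF4 or IRF8 can bind together, occurred in 16.3% of the CpG-poor windows with a peak (exact 95% interval 13.4% to 19.7%) and 9.11% of those without (8.51% to 9.72%), against 7.71% of all windows. These shares depend on the letters searched. A form with 1 more base (G for the PU.1 site, A for the composite) was searched first, and the shorter letters were chosen after its results were seen. The shares for the longer form were 3.91% with a peak and 0.430% without for the PU.1 site, and 7.64% and 3.15% for the composite. In windows of any CpG content that held a peak centre, 55.0% of composite matches in the shorter letters lay under the peak. Of the bases, 54.1% did. Among windows with a peak, the composite was in 6.79% of the 25% with the strongest peaks and 7.76% of the 25% with the weakest. The composite thus lay under the peak about as often as any base and was not more frequent at stronger peaks. Among CpG-poor windows, the TATA box was in 12.6% with a peak and 22.2% without, so less often with a peak. The GC box was in 23.3% and 12.6%, so more often with a peak. Over all windows, with or without a peak and CpG-rich ones included, the TATA box was in 12.5% and the GC box in 46.6%. The AP-1 site was in 12.3% (9.66% to 15.3%) with a peak and 969 of 8830 without, with overlapping intervals, against 6.99% of all windows.

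In windows with over 10 CpG, CCAAT was in 44.3% of those with a peak (exact 95% interval 42.8% to 45.9%) and 32.4% of those without (31.4% to 33.5%), against 38.2% of all windows. Among all windows with a peak, CCAAT was in 51.7% of the 25% with the strongest peaks and 36.5% of the 25% with the weakest. In the 3004 windows of any CpG content that held a peak centre, 59.3% of the CCAAT matches and 46.7% of the GC box matches lay under the peak, while 54.1% of the bases did. The GC box was in 3060 of these 4080 windows with a peak and in 5488 of the 7533 without. The ETS core GGAA was in 95.7% of all windows and told little apart. Some motifs can overlap each other: the PU.1 site and the composite both contain GGAA, and a CCAAT box next to a GC box shares bases with it in some windows.

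Of 1005 miRNA hairpins in the RefSeq table, 16 were overlapped by a peak. The share expected for stretches of their length was not computed. Among the 16 is Mir155, whose product is known to act in dendritic cell maturation. The peak at chr16:84714075-84714265 covered the hairpin at chr16:84714140-84714204 (+), with 22.8 normalised tags against 3 knockout tags and a fold of 9.23 (exact 95% interval 3.05 to 45.7). Its main mature product is printed with the seed, bases 2 to 8, in capitals.
miR-155-5p: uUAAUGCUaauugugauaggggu

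Chromosomes differed in peak density roughly as they differ in genes, with X apart. Autosomes held between 9.23 peaks per Mb (chromosome 14) and 18.5 (chromosome 19), with a median of 12.5, and X held 4.44, from 757 peaks. Over the 19 autosomes, which share both tag sets, peaks per Mb and protein-coding genes per Mb had a Pearson r of 0.69 and a Spearman rho of 0.65. Per protein-coding gene, autosomes held 0.897 (chromosome 7) to 1.98 peaks (chromosome 12) and X held 0.784. Chromosome 12 and X have the same gene density, 5.66 genes per Mb, and held 11.2 and 4.44 peaks per Mb. Peaks per gene on X over those on the autosomes came to 0.528, and to 0.298 among the higher-scoring 50% of peaks.

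**Figure D4:**
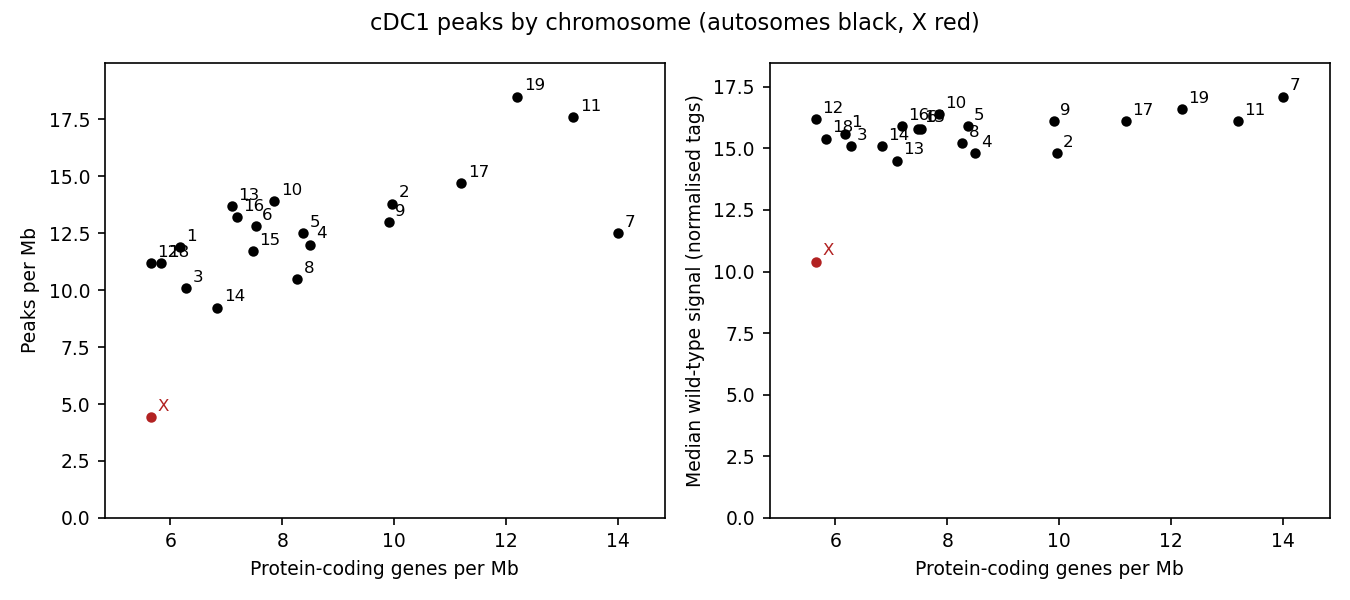
Peaks per Mb (left) and median wild-type signal in normalised tags (right) of each chromosome against its protein-coding genes per Mb, autosomes in black and X in red. X lies below every autosome in both panels, at 4.44 peaks per Mb and a median of 10.4 normalised tags.

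The X peaks were also weaker. Their median signal was 10.4 normalised tags, while autosome medians lay between 14.5 and 17.1. The gap was there in these places: 10.4 against 15.0 inside genes and 9.30 against 13.7 beyond 10 kb, for X and the autosomes together, and at gene ends 11.8 against 19.7 over all chromosomes. Knockout tags were fewer too, with a mean of 1.42 on X and 2.30 to 3.01 on autosomes, and 39.8% of X peaks stood at the lowest value against 16.0% to 22.4%. The strongest X peak, inside Cask, a scaffold kinase gene, held 93.0 normalised tags against 2 knockout tags. Promoter windows on X held a peak in 16.4%, next to 16.9% on chromosome 7, the lowest autosome, and a highest of 25.9% on chromosome 13.

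On chromosome Y, 10 peaks lay within 81.8 kb at its end, from 90738071 to 90819863, although the mice were female. The end of Y holds the region shared with X, where tags from X can be placed on Y. Whether that was so for these 10 peaks was not tested. Their signal ran from 6.20 to 51.3 normalised tags, and 7 of the 10 stood at the lowest knockout value.

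Of 21887 protein-coding genes, 11113 (50.8% with a peak) had at least 1 peak assigned, that is, a peak inside the gene or nearest to its end. Of these, 4728 genes had 1 peak, while 445 genes had 10 or more and together held 19.3% of the peaks. Longer genes had a peak more often: 24.2% of the shortest 25% of genes, up to 5.67 kb, and 71.0% of the longest 25%, over 44.3 kb. Foxp1, a forkhead repressor gene of 597 kb, had the most, 45 peaks with 36 inside, at 5.64 to 58.8 normalised tags. Jarid2, encoding a partner of Polycomb complex PRC2, had 41 peaks, of which 30 lay outside and up to 434 kb away. Lpp, a focal adhesion gene, had 34 and Adgrl2, an adhesion receptor gene, had 32.

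Short genes reached such counts through peaks around them. Id2, the inhibitor gene needed for cDC1 development, is 2.29 kb long and had 32 peaks, none inside, up to 556 kb away and at 5.50 to 79.8 normalised tags. Marcks, a membrane and actin linker gene of 5.68 kb, had 26 peaks with 1 inside, the strongest at 94.0 normalised tags. The calcium pump gene Atp2b1 had 30 peaks with 8 inside. Snx29, a sorting nexin gene, had all of its 26 peaks inside. Bach2, Foxn3 and Reep3 had 26 each. Peaks lay near each other: the median distance to the nearest other peak was 8.62 kb, and 55.3% had one within 10 kb. A nearest gene is a position and not a shown target.

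All 24 genes of the list of dendritic lineage regulators had a peak, beside the 50.8% of all genes. The list holds transcription factors of cDC1 and of other dendritic or myeloid cells, such as Irf4, Klf4, Tcf4 and Cebpa, and the receptor Flt3. The strongest peak per gene had a median of 50.6 normalised tags against 21.9 over all genes with a peak. These genes had a median of 7 peaks each, against 2 over all genes with a peak. The strongest of many peaks tends to be higher than that of few. Such medians, here and in the lists below, thus do not compare single peaks. Bcl6, a repressor needed by cDC1, led with 124.9 normalised tags, with 153.0 wild-type tags at the knockout depth against 4 knockout tags. Etv6, an ETS family repressor gene, held 102.3 normalised tags against 10 knockout tags and Batf3, the cDC1 lineage factor, 84.7 against 4. The genes are of middling length, with a median of 23.5 kb against 17.2 kb over all genes. Zfp366 itself had 10 peaks, Irf8 had 6 and Il12b had 14, with strongest peaks of 58.1, 51.3 and 69.5 normalised tags. Zfp366 is also the gene knocked out, and which part was removed is not given. Where its DNA was removed, knockout tags would be missing with or without binding, so its peaks cannot be read like those of other genes.

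All 20 cDC1 surface and uptake genes had a peak, beside the 50.8% of all genes. Their strongest peaks had a median of 51.8 normalised tags, against 21.9 over all genes with a peak. The median number of peaks was 3 per gene, against 2 over all genes with a peak. After Cadm1 stood the scavenger receptor Cd36 at 107.4, the RNA sensor Tlr3 at 102.8 and Wdfy4, needed for cross-presentation, at 84.4 normalised tags. Knockout tags at these 3 were 10.5, 2 and 4. Of the interleukin 12 family and T cell directing cytokines, 13 of 16 (81.2%) had a peak, with Il1b at 83.7, Il12b at 69.5, and the chemokines Ccl5 at 58.8 and Ccl17 at 45.8 normalised tags. Il23a, Ebi3 and Cxcl10 had none assigned.

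Maturation and lymph node homing genes had a peak at 18 of 20 (90.0%), beside the 50.8% of all genes. They were led by Marcks at 94.0, the costimulatory ligand Cd86 at 89.8, Cd83 at 80.6 and Cd200 at 80.4 normalised tags. Fscn1, which bundles actin in mature dendritic cells, and Tnfrsf4 had none. Actin and migration genes had one at 23 of 24 (95.8%), with the Arp2/3 subunit Actr3 at 117.6, Wasf2 at 88.7, Dock2 at 83.0 and the myosin Myo1f at 81.3 normalised tags, while Rhoa had none. All 24 genes for phosphatases and other brakes on signalling had a peak. Behind Ubash3b stood the lipid phosphatase Inpp5d at 95.9 and Dusp1, which acts on MAP kinases, at 68.1 normalised tags. The median length in these lists was 17.0, 40.4 and 57.4 kb.

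Nuclear receptors and cofactors, the known partners of DC-SCRIPT, had a peak at 21 of 24 genes (87.5%), beside the 50.8% of all genes. Their median strongest signal was lower than in the lists above, at 25.9 normalised tags, against 21.9 over all genes with a peak. Nr4a3 led with 74.4 normalised tags, then Rara, a retinoic acid receptor, with 66.1, Nr4a1 with 50.7 and the corepressor Nrip1 with 48.2. Pgr and Rxrb were among those with none. These genes had a median length of 70.8 kb, the longest of the 16 lists.

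Lists of general cell functions also had many genes with a peak, beside the 50.8% of all genes. Lysosome and phagosome acidification genes had a peak at 23 of 24 (95.8%), with the proton pump subunit Atp6v1a at 56.7 and Ncf4 of the NADPH oxidase at 53.1 normalised tags, and Ctsl had none. Apoptosis and survival genes had one at 20 of 24 (83.3%), with Pmaip1 at 85.1 and Bcl2l1 at 77.5, while Bax, Ripk1 and Ripk3 were among those with none. Circadian clock genes had one at 17 of 20 (85.0%), with Cry1 at 46.0 and Bhlhe40 at 44.3 behind Per1, and Dbp, Hlf and Csnk1d had none. Proteasome core genes had one at 12 of 17 (70.6%, exact 95% interval 44.0% to 89.7%), an interval that contains the share of all genes. Psmb9, an immunoproteasome subunit gene, stood at 93.6 normalised tags.

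**Figure D5:**
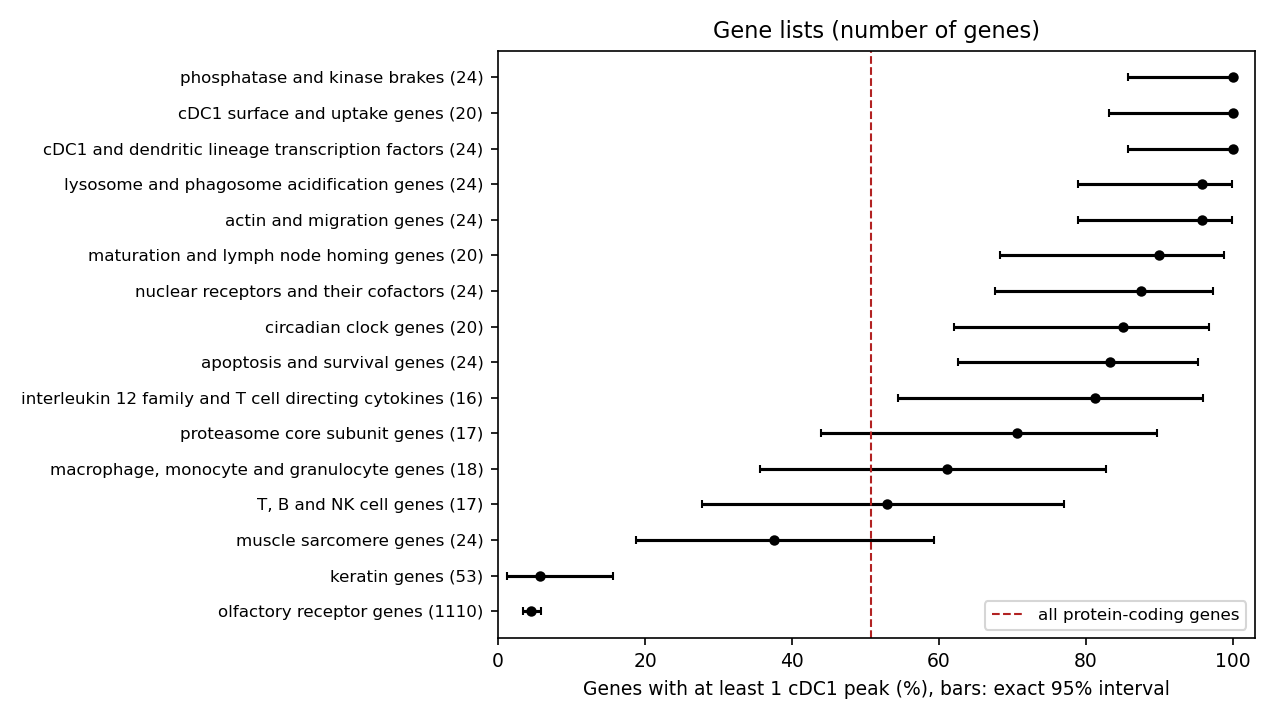
Share of genes with at least 1 assigned cDC1 peak in 16 lists (points, with exact 95% intervals as bars) and over all protein-coding genes (dashed line, 50.8%). The lineage regulator, cDC1 surface and phosphatase lists stand at 100% and the olfactory receptor and keratin lists at 4.50% and 5.66%.

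Genes of other cell types were counted the same way. Of T, B and NK cell genes, 9 of 17 (52.9%, exact 95% interval 27.8% to 77.0%) had one, near the share of all genes, with Cd4 at 48.1 and Cd3e at 29.5 normalised tags. Lck, Zap70 and Cd79a were among those with none. Of macrophage, monocyte and granulocyte genes, 11 of 18 (61.1%, 35.7% to 82.7%) had one, with Mmp9 at 58.5 and Ly6c2 at 53.7 normalised tags, while C1qa, C1qb, Lyz2 and Spic had none. The genes of these lists are short, with a median length of 10.9 kb and 7.49 kb. Whether peaks at such genes came from other cells in the sort was not tested.

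Lists of genes not known to act in leukocytes stood lowest. Muscle sarcomere genes had a peak at 9 of 24 (37.5%, exact 95% interval 18.8% to 59.4%), an interval that contains the 50.8% of all genes. Neb stood at 53.3 and Tnni2 at 46.9 normalised tags. Keratin genes had one at 3 of 53 (5.66%) and olfactory receptor genes at 50 of 1110 (4.50%, 3.36% to 5.90%). Olfactory receptor genes are short, keratin genes had a median length of 7.07 kb against 17.2 kb over all genes, and the share of genes with a peak also differed by length as given above. Among the genes named, Olfr433, 1.06 kb from a peak of 68.5 normalised tags, stood highest of the olfactory receptors.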

How the data were processed

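The cDC1 data came from CUT&Tag on 5 mouse pools, 3 wild type and 2 knockout. Peaks were called with HOMER in factor mode on build GRCm38 (mm10), per the file headers and the submitters' processing notes; neither names the aligner or how duplicates were treated. The authors set a peak size of 191 bp, a fold of at least 4 and a Poisson p-value of at most 0.0001 over knockout and over the local 10 kb, per the file headers. The deposited signal is wild-type tags per 10000000. The deposited focus ratio is a fraction, the deposited score is in tags, and the deposited fold is a ratio at equal depth. The deposited tags of the knockout (count-like signal in steps of 0.5) gave the knockout depth of 12.1 M tags. Each deposited p-value is the authors' and was not used as a test.

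Each peak was given the protein-coding gene (RefSeq, GRCm38.p6, 21887 genes) that contains its centre or has the nearest end. Exact intervals are Clopper-Pearson at 95%, over tags rounded to whole numbers or over peaks, genes or windows, and cover counting error only, since tags carry no molecular identifiers here. Duplicate tags may be counted, since some peaks hold more tags than positions, so intervals over tags may be too narrow. Where the knockout stood at 0.5, only the lower limit of the fold is given, from no knockout tag. Promoter windows matched 17250 genes; windows of chromosome 18 were not used here. Of 297 list entries, 1 (Trac) found no gene, and 2 genes stood in more than 1 list. The members, gene lists and motifs were chosen with earlier results of these data known. Named were the 10 strongest peaks, the 10 genes with most peaks, the 10 strongest peaks at gene ends or promoters, for each list the 4 genes of highest signal and up to 4 with no peak, the strongest peak of each chromosome, and Zfp366, Irf8 and Il12b; of these, those that carry a result are given, and some genes are not reported here. The letters of the PU.1 site, the composite and the NRF1 site were shortened by 1 base after a longer form had been run. Other genes named, Cass4, Reep3, Mir155 and the promoters printed for their motifs among them, were chosen after their values were seen. Alternatives were a fold of at least 8, the higher-scoring 50% of peaks, gene ends of 2 kb, leaving out X, all gene types, peaks within 10 kb and peak centres in windows. Assignment and intervals were tested on simulated data. Python 3.11.15, numpy 2.4.6, pandas 2.3.3, scipy 1.17.1 and matplotlib 3.10.9 were used.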

Additional observations from a re-analysis of the deposited data

How the results depend on the processing

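No paired analysis was possible because the peak list gives 1 value per genotype, and for the same reason no library could be left out. Of 52 values recomputed under alternatives, 24 stayed within the counting interval of the reported value and 28 moved. The reported share of peaks was larger beyond 10 kb than at gene ends. That order turned around with the higher-scoring 50% of peaks, with gene ends of 2 kb and with all genes of the table. With a fold of at least 8, the shares of peaks were 16.5% at gene ends, 45.0% inside genes, 11.4% at 1 to 10 kb and 27.1% beyond 10 kb, the ratio of median signal at gene ends to that beyond 10 kb was 1.41 (reported 1.46), peaks per gene on X over the autosomes were 0.639 (reported 0.528), and 10.4% of promoter windows held a peak (reported 22.1%). With the higher-scoring 50% of peaks, gene ends made up 26.6%, insides 41.3% and peaks beyond 10 kb 21.2%, the signal ratio was 1.04, the gap in the share at the lowest knockout value was 7.28 percentage points (reported 15.8), the X ratio was 0.298 and windows with a peak 15.7%. With gene ends of 2 kb, the shares were 25.6% at gene ends, 40.5% inside and 9.31% at 1 to 10 kb. With all genes of the table they were 25.8%, 47.8%, 13.9% and 12.4% in the order above, and the X ratio per gene of any type was 0.462. With the peak centre inside the window, 14.3% of windows held a peak. The score is itself in wild-type tags, so the higher-scoring 50% are also chosen on signal. In 13 of 16 lists the share with a peak was above that of all genes under each of the 4 settings run. Among them, the T, B and NK cell list was near that share, at 52.9% against 50.8% as reported. With the higher-scoring 50% of peaks it was at 35.3% against 34.7%. With only peaks within 10 kb, the lineage list stood at 91.7%, the phosphatase list at 87.5% and the cytokine list at 68.8%. The cDC1 surface list then stayed at 100% and all genes stood at 47.2%. With a fold of at least 8, the share of all genes went from 50.8% to 38.3%. That of maturation genes went from 90.0% to 65.0% and that of lysosome genes from 95.8% to 62.5%, while the macrophage list stayed at 61.1%. With a fold of at least 8, the higher-scoring 50% of peaks or the peak centre inside the window, the PU.1 site was in 8.86% to 10.3% of CpG-poor windows with a peak and 1.15% to 1.23% of those without, and the composite in 14.9% to 17.0% and 9.27% to 9.35%. With motifs 1 base longer, the form searched first, the shares with a peak were 3.91% and 7.64%. The knockout depth of 12.1 M tags limits the fold of weak peaks.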

Other observations

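Some single peaks had focus ratios far from the rest. The highest were at Tcte3 (0.987, 20.6 normalised tags, 6 knockout tags), 9930111J21Rik2 (0.98, 12.7 normalised tags) and Gm3435 (0.973, 14.9 normalised tags), all within 1 kb of a gene end and in families of near-identical copies, where tags may be placed at the wrong copy. The peak at Lars2, a mitochondrial leucyl-tRNA synthetase gene, had a focus ratio of 0.914, 123.3 normalised tags and 32.5 knockout tags, with a signal 67.2-fold over its surroundings. The lowest focus ratio was 0.444, inside Accs, at 5.92 normalised tags.

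Values of 4 strong peaks outside genes follow, picked by eye from the list. Ifnar2, which encodes part of the receptor for type I interferons, was nearest to a peak of 116.6 normalised tags at 17.4 kb with 8.5 knockout tags. Ifitm3, an antiviral membrane protein gene, was nearest to one of 124.9 normalised tags at 10.1 kb with 6 knockout tags. Rbpj, the DNA-binding factor of Notch signalling, was nearest to one of 126.2 normalised tags at 15.7 kb with 2.5 knockout tags. Il2ra, a receptor chain for interleukin 2, was nearest to one of 153.2 normalised tags at 5.50 kb with 3 knockout tags. These genes were named after their values were seen.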
